A study of Elaeis guineensis with 10 samples.

Results

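The genes described here are the 150 oil palm stems with the most numbered segments. A stem is the ID of a counting unit without its last number, so that all numbered units of p5_sc00015_cds_456 belong to 1 stem, and a unit is a segment of the annotation with its own read count. The count tables hold 92649 such units labelled cds, in 18394 stems. Stems were ranked by their number of units, read or not, with at least 15 required and ties taken in alphabetical order. The 150 stems so chosen hold 4014 units, 4.33% of the total, from 22 to 53 per stem with a median of 25. The limit falls inside a tie: 44 stems have 22 units, of which 19 are members and 25 are not. No measured value entered the choice.

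The reads come from the leaf labelled frond 0 of 10 clonal palms (Elaeis guineensis), all raised from a single ortet, the mother palm of a clone. By fruit phenotype 5 palms are mantled and 5 are normal, and normal is the study's reference. All 10 palms share the ortet, the clonal origin and the leaf position, and the labels give no age, treatment, planting site, RNA integrity value or sequencing batch. Each palm is a separate plant and 1 stranded, paired-end mRNA library, so p-values measure the spread between single leaf samples of different palms.

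Mantling is a known outcome of propagating oil palm by tissue culture: stamens turn carpel-like, and fruits are misshapen. In plants, as in other eukaryotes, a protein-coding gene is usually interrupted by introns, and its coding segments are joined in the mature messenger RNA. The share of a gene's reads that falls on each segment can change through alternative splicing, through alternative starts and ends of the transcript, and through uneven coverage of transcripts by a library, while the gene's total stays the same. Usage of segments is therefore described here apart from the stem total. The tables pair no ID with a name, a function, a length or coordinates, and 0 of the 4014 units matched the RefSeq gene table of the EG11 assembly. It is not known whether a unit is exactly an exon or on which strand the numbers run, so shares were compared between palms for the same unit, shares of different units of a stem are not per length, and leaf markers could not be checked.

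Between 28705 and 50926 reads per palm fell on the units of the 150 stems, out of 10236532 to 12544294 reads assigned to all units. The 150 stems thus took 0.451% to 0.798% of the reads on cds units while holding 4.33% of those units. Of their 4014 units, 820 (20.4%) had no read in any palm, close to the 21.4% of the 88635 units in the other stems. The numbers within each of the 150 stems ran from 1 without a gap. In 128 stems every palm had at least 10 reads, and these are described by shares. The remaining 22 stems had 3 to 262 reads over the 10 palms together and are counted here but given no shares. Reads that were ambiguous between units made up 18.2% to 20.6% of the reads listed per palm. HTSeq, the counting program, can set a read that touches more than 1 unit aside as ambiguous, the counting mode is not given, and the part of such reads in the shares below was not tested.

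Reads were concentrated on few units, and mostly on an end of the numbering. Over the 10 palms together, the most used unit held a median of 50.9% of its stem's reads (quartiles 38.9% and 64.8%, n = 128 stems), and in 65 stems it held more than 50%. The extremes were 14.5% and 93.8%. The effective number of units, the exponential of the Shannon entropy of the shares, had a median of 5.09 and ran from 1.47 to 14.9. By its definition the effective number cannot exceed the number of units, which was at least 22 in each of these stems.

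In 93 of the 128 stems (72.7%) the most used unit was the first or the last by number, while end units make up 7.69% of the units on average. The first unit led in 48 stems, the last in 45 and an inner unit in 35. End units had a median of 285.5 reads over the 10 palms and inner units a median of 7. Among inner units 477 of 3196 (14.9%) were never read, against 10 of 256 end units (3.91%). Stems with fewer units also had the most used unit mostly at an end, but end units are a larger part of their units. It was at an end in 67.0% of 464 other stems with 15 to 22 units (ends 11.6% of units on average). The figure was 75.9% of 1344 stems with 10 to 14 units (ends 17.45%) and 77.7% of 3351 stems with 5 to 9 units (ends 31.25%). In 2150 stems with 3 to 4 units it was 82.3% (ends 58.8%).

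**Figure D1:**
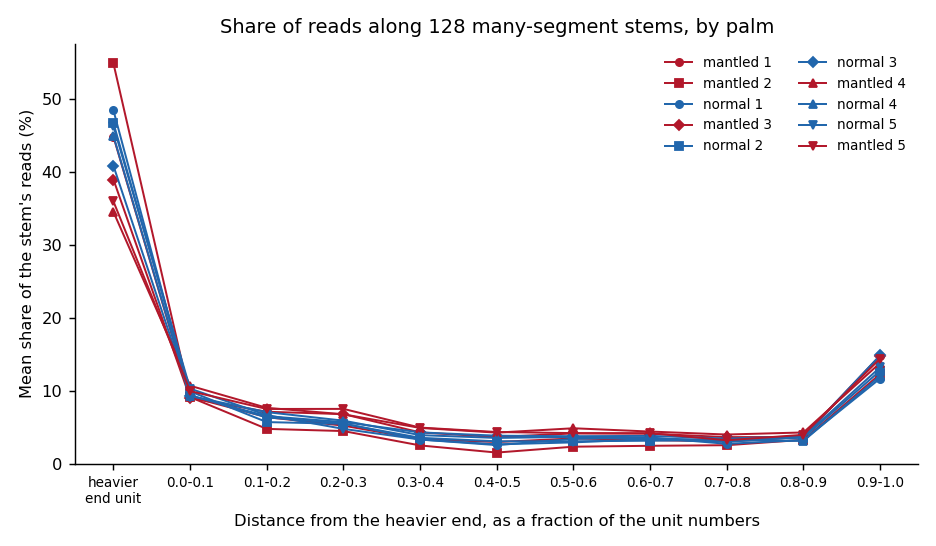
Mean share of a stem's reads (percent, vertical axis) by distance from the heavier end, as a fraction of the unit numbers (horizontal axis), over 128 stems in each of the 10 palms (lines; red mantled, blue normal). The heavier end unit held 34.5% of reads in mantled replicate 4 and 54.8% in mantled replicate 2, and the last bin, which holds the opposite end unit and the inner units next to it, held 11.7% in normal replicate 1 and 13.8% in mantled replicate 4.

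The palms differed in how strongly the reads were drawn to the heavier end. For each palm the heavier end of a stem was taken as whichever of its first and last units had more reads in the other 9 palms, so the palm's own reads did not choose it. That choice was the same for every palm left out in 122 of the 128 stems, and it fell on the first unit in 66 and the last in 62 when all palms were summed. Mean shares of the heavier end over 128 stems were 44.8%, 54.8%, 38.9%, 34.5% and 35.9% in mantled replicates 1 to 5, and 48.4%, 46.7%, 40.8%, 44.9% and 46.2% in normal replicates 1 to 5. Mantled replicate 2 was the highest of all palms, mantled replicates 3 to 5 were the lowest, and the normal palms lay between them, so the groups overlapped. The palm with the highest share in a stem was mantled replicate 2 in 80 of the 128 stems, and the palm with the lowest was mantled replicate 4 in 50.

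In percentage points, what the heavier end gained came from the inner units together more than from the single unit at the opposite end. A stem has many inner units, so this is not an order per unit. The inner units together held 36.5% of a stem's reads on average in mantled replicate 2 and 56.5% in mantled replicate 4. The opposite end held 7.74% to 10.1% in all palms, with 8.71% in mantled replicate 2. Averaged over positions, reads lay 0.234 of the numbering away from the heavier end in mantled replicate 2 and 0.326 in mantled replicate 4. Among the 98 stems with at least 1000 reads over the 10 palms, the heavier-end share ran from 34.0% to 54.2% with the same 2 palms at the extremes.

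The extremes of that order were shared by stems outside the 150, while the palms in the middle changed places. Mantled replicate 2 was highest, normal replicate 1 the next, and mantled replicates 5 and 4 the last in each of 5 classes of stems by number of units. The distance between the highest and the lowest palm was 20.3 percentage points in the 150 stems, 15.8 in other stems with 15 to 22 units, 13.7 with 10 to 14 units, 9.34 with 5 to 9 units and 5.57 with 3 to 4 units. Without mantled replicate 2 it was 34.5% to 48.4% in the 150 stems. Over 4695 stems with 5 to 14 units, none of them members, the heavier-end share was 50.2 ± 4.15% in mantled and 52.2 ± 1.61% in normal palms (SD, n = 5 each; exact two-sided permutation p = 0.357 over 252 assignments). The difference between phenotypes was within the spread of the palms.

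**Figure D2:**
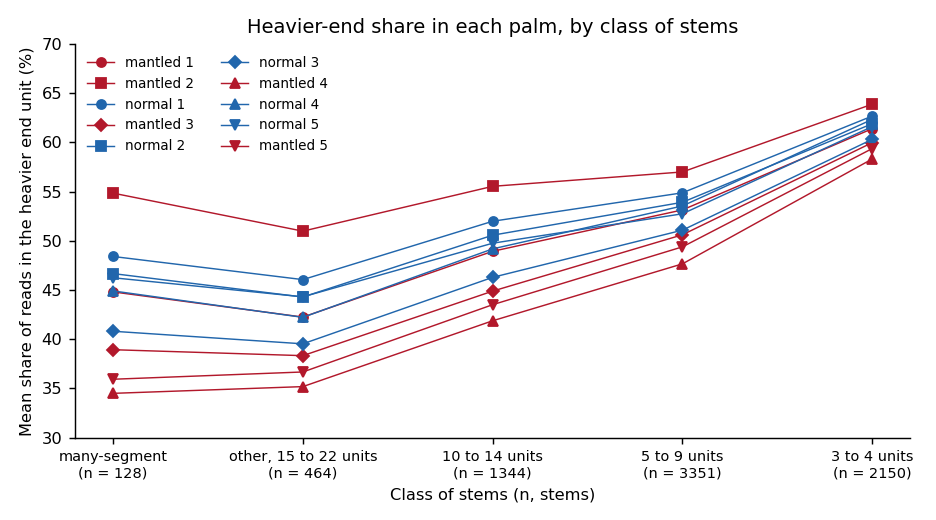
Mean share of reads in the heavier end unit (percent, vertical axis, from 30 to 70) in each palm (red mantled, blue normal; lines join a palm's values) for 5 classes of stems by number of units (horizontal axis, n stems). Mantled replicate 2 is at the top and mantled replicate 4 at the bottom in all classes, with changes of place in the middle, and the palms spread over 20.3 points in the many-segment stems and 5.57 points in stems with 3 to 4 units.

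Library size and ambiguous reads also varied between palms. Assigned reads numbered 11002698, 10746817, 12043560, 12544294 and 11964708 in mantled replicates 1 to 5, and 10926993, 10851333, 10236532, 11636297 and 12522062 in normal replicates 1 to 5. The largest library, mantled replicate 4, had the lowest heavier-end share, and mantled replicate 2, with the highest share, had the smallest library but one, while the smallest, normal replicate 3, had a share of 40.8%. Ambiguous reads were 20.5%, 18.5%, 20.03%, 18.7% and 18.7% of the reads listed in mantled replicates 1 to 5, and 18.2%, 20.5%, 20.3%, 19.5% and 20.6% in normal replicates 1 to 5. The part of either in the shares was not tested.

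The number of segments seen in a stem varied with the palm in the opposite sense. When each of 97 stems was reduced to 50 reads per palm by exact calculation, 6.46 units per stem were expected to have a read in mantled replicate 2, 7.70 in mantled replicate 1 and 7.73 in normal replicate 1. The same expectation was 9.59 in mantled replicate 5 and 9.95 in mantled replicate 4, and the other 5 palms lay between 7.97 and 8.72. With all reads kept, the means ran from 11.2 units in mantled replicate 2 to 17.6 in mantled replicate 4. Mantled replicates 4 and 5, with the lowest heavier-end shares, thus showed the most segments at equal depth. Mantled replicate 1 showed fewer than normal replicate 1 although its share was lower. The 2 measures come from the same reads and are not independent, since more reads on 1 unit leave fewer for the others.

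Usage of single units was then tested against the heavier-end share of the palm as a covariate. The share was measured on the 4695 stems with 5 to 14 units, so no read of the 150 stems entered it, and 1 SD of the covariate is 3.14 percentage points. edgeR's quasi-likelihood test was applied to unit counts with the stem's reads in the same palm as offset, so that a slope is a change of share on the log2 scale. In the 150 stems 424 units in 101 stems passed the filter on low counts, and 166 of them (39.2%) had a Benjamini-Hochberg adjusted p under 0.05, where 36.7% of all 21704 units tested did, a figure that includes the stems that formed the covariate. With a term for phenotype added, 143 of 424 (33.7%) passed for the covariate, where 29.8% of all units did. Both shares are near the background.

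Direction followed the place of the unit. Of 98 tested heavier-end units, 72 rose with the covariate and 2 fell (edgeR adjusted p under 0.05), with a median slope of 0.25 per SD. Among 267 inner units 57 fell and 6 rose, with a median slope of -0.19. Among 59 units at the opposite end 23 fell and 6 rose, with a median of -0.29. Shares within a stem sum to 100%, so the slopes of its units are not independent. Without mantled replicate 2, 78 of 478 units (16.3%) passed, where 14.5% of all 23110 units did: 48 heavier-end units rose and 1 fell, and 22 inner units fell and 2 rose.

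**Figure D3:**
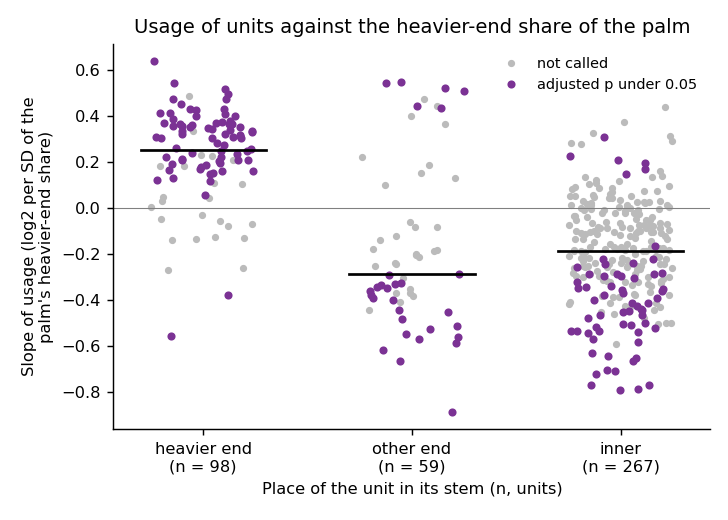
Slope of each tested unit's usage (log2 per SD of the palm's heavier-end share, vertical axis) by the unit's place in its stem (horizontal axis, n units), with units past an adjusted p of 0.05 in purple and medians as bars. Heavier-end units lie mostly above 0, with 72 rising and 2 falling past the threshold, and inner units mostly below, with 57 falling and 6 rising.

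Between mantled and normal palms, no unit of the 150 stems changed its usage past the threshold when all 10 palms were tested. The comparison asks whether the leaf of mantled palms uses segments of its many-segment genes differently from that of normal palms of the same ortet. With edgeR, 0 of 424 units had an adjusted p under 0.05, where 0% of all 21704 units did, and the lowest adjusted p in the 150 stems was 0.925. An unadjusted p under 0.05 was reached by 6 units (mantled palms were higher in 5 of them), or 1.42% of the 424, where 4.04% of all units reached that level (2.81% higher and 1.23% lower). The ranges of the phenotypes were disjoint in 0 of the 424 units and in 0.359% of all units tested. DESeq2, diffSpliceDGE, limma-voom with diffSplice and a quasi-binomial model also called 0 of 424 units, with 4, 0, 1 and 25 at an unadjusted p under 0.05. Over all 21704 units the same tools had 678, 56, 135 and 1522 at that level.

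Per stem, the smallest p over its units after Simes' correction gave 0 of 101 stems at an adjusted p under 0.05 and 0 at an unadjusted p under 0.05, where 0% and 2.82% of 7090 stems tested did. Precision was limited: 49 of the 150 stems were not tested, 22 for fewer than 10 reads in some palm and 27 for fewer than 2 units past the filter. The log2 usage differences had standard errors with a median of 0.27 (quartiles 0.20 and 0.35). For 287 of the 424 units (67.7%) the unadjusted 95% interval, taken with 8 residual degrees of freedom, excluded a 2-fold change of share in either direction.

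The count of 0 rested on mantled replicate 2. Without that palm, edgeR called 7 of 478 units (1.46%), where 3.82% of all 23110 units passed, and 3 of 106 stems (2.83%), where 6.02% of 7288 stems did. Of the 7 units, 6 were heavier-end units that fell in mantled palms, by 0.36 to 0.79 on the log2 scale, and 1 was an inner unit that rose by 1.01. The same lean, unadjusted, was already present with mantled replicate 2 included. There 82 of 98 heavier-end units had a lower estimate in mantled palms (median log2 difference -0.15). Of the inner units, 183 of 267 had a higher one (median 0.08). Among the 478 units tested without that palm, 91 of 104 heavier-end units had a lower estimate in mantled palms (median -0.31). In that comparison 233 of 311 inner units had a higher one (median 0.21). These counts by place were not made over all units tested, and units measured in the same palms are not independent. The lean was not particular to the 150 stems. With all 10 palms, the mean heavier-end share, mantled minus normal, was -3.60 points there and -2.61 to -1.18 in the other classes of stems. The 4 mantled palms kept there had heavier-end shares of 34.5% to 44.8%, and the normal palms 40.8% to 48.4%. With the heavier-end share of the palm as a covariate as well, 0 of 478 units and 0 of 23110 in all were called. The 7 units kept their direction there, with the 6 heavier-end units between -0.15 and -0.50 and the inner unit at 0.73, and standard errors of 0.09 to 0.20. Leaving out any other single palm gave 0 units.

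The 4 units named by their p-value, 2 in each direction, lay inside their stems, and in each the values of the groups overlapped. Unit p5_sc00017_cds_71.12, 1 of 22 in its stem, held 1.75%, 0.362%, 1.94%, 3.80% and 2.42% of the stem's reads in mantled replicates 1 to 5, and 1.09%, 0.504%, 0.859%, 1.43% and 1.047% in normal replicates 1 to 5. The lowest value of all was in mantled replicate 2, from 1 read, while the other mantled palms lay above every normal palm. The usage difference was 1.11 on the log2 scale (SE 0.40, edgeR adjusted p = 0.925), and 0.46 with the heavier-end share as covariate.

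Unit p5_sc00075_cds_222.15, of 29, held 4.78%, 2.68%, 5.40%, 7.55% and 7.83% in mantled replicates 1 to 5 and 4.29%, 2.56%, 3.84%, 3.77% and 2.73% in normal replicates 1 to 5. Again mantled replicate 2 was among the low palms and the other 4 mantled palms were above all normal ones. The difference was 0.70 on the log2 scale (SE 0.28, edgeR adjusted p = 0.925), and 0.37 with the covariate.

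Lower in mantled palms was unit p5_sc00039_cds_148.23, of 24. Its shares were 10.0%, 8.17%, 8.50%, 9.0% and 8.61% in mantled replicates 1 to 5 and 11.2%, 10.4%, 10.3%, 9.88% and 9.02% in normal replicates 1 to 5, which is -0.20 on the log2 scale (SE 0.09, edgeR adjusted p = 0.925). Mantled replicate 1 reached into the normal range. Unit p5_sc00087_cds_207.22, of 29, held 0.70%, 1.07%, 1.70%, 1.31% and 2.15% against 2.92%, 1.85%, 1.83%, 2.56% and 1.71%, from 6 to 27 reads per palm, which is -0.62 on the log2 scale (SE 0.29, edgeR adjusted p = 0.925).

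By edgeR's dispersion, stem totals varied more between palms than usage did. A unit's own reads are part of the stem total used as offset. This limits the spread of usage for units with a large share. The coefficient of variation beyond counting error, the square root of edgeR's dispersion, had a median of 0.350 for the totals of 136 of the 150 stems that passed the filter and of 0.235 for the usage of the 424 units. Counted against library size in place of the stem total, the same 424 units had a median of 0.427. Over all features tested the medians were 0.403 for totals of 11859 stems, 0.167 for usage and 0.427 for units against library size. In 92 of 101 stems the median usage coefficient was below that of the total. Without mantled replicate 2 the usage coefficient was 0.160 over the 478 units tested there. With the heavier-end share as covariate on all 10 palms it was 0.143.

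**Figure D4:**
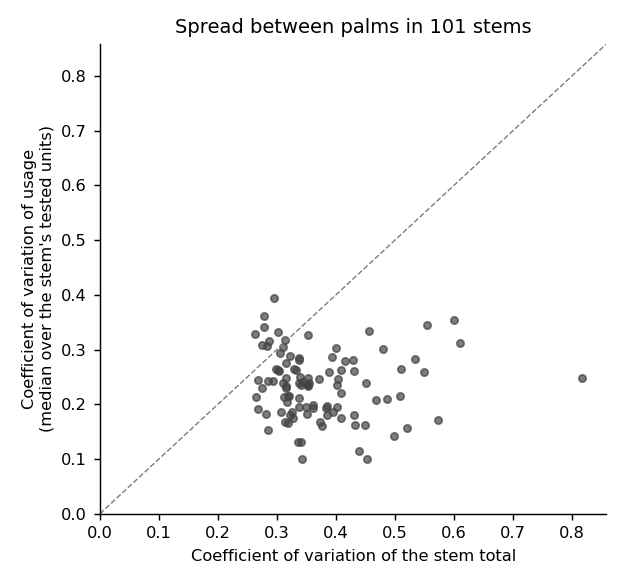
Coefficient of variation of usage (vertical axis, median over the tested units of a stem) against that of the stem total (horizontal axis) for 101 stems (points), both as the square root of edgeR's dispersion; the dashed line marks equal values. In 92 stems the point lies below the line.

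No stem total passed the threshold for a difference between phenotypes. Of the 136 stems tested, edgeR called 0 at an adjusted p under 0.05, where 0% of 11859 stems passed, and 0 at an unadjusted p under 0.05, where 0.869% did; DESeq2 called 0 and 0 as well. Estimates were higher in mantled palms for 77 stems and lower for 59, between -0.75 and 0.50 on the log2 scale, with a median standard error of 0.29. The median was 0.03 in the 150 stems and 0.00 over all stems.

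The palms nonetheless differed in the part of the assigned reads that fell on these genes. Reads on the 150 stems, in CPM of all assigned reads, were 3158, 2671, 4095, 3878 and 4256 in mantled replicates 1 to 5, and 2982, 3624, 3955, 4066 and 2456 in normal replicates 1 to 5. On that scale normal replicate 5 had the lowest CPM in 56 of 128 stems, and mantled replicate 5 the highest in 35. No such count was made for the other stems, so whether this order is particular to the 150 was not tested. These values are not TMM-scaled, unlike the stem totals tested and the CPM of named stems. The order of the palms differs between the scales in some stems. TMM-scaled, p5_sc00339_cds_36 was lowest in mantled replicate 2, at 82.6 CPM, with 114 CPM in normal replicate 5. These came from 986 of 10746817 and 1104 of 12522062 assigned reads. In p5_sc00105_cds_111 normal replicate 5 was lowest after TMM scaling as well, at 16.5 CPM. The part of the scaling in the counts of lowest and highest palms was not tested. The low palms without TMM scaling were normal replicate 5, mantled replicates 2 and 1 and normal replicate 1. Their heavier-end shares were 46.2%, 54.8%, 44.8% and 48.4%. The other 6 palms had shares of 34.5% to 46.7%, among them normal replicate 4 with 44.9%, so the ranges overlapped. In bulk leaf, fewer cells of a type and less RNA per cell cannot be told apart.

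By place in the stem, the same coefficient of usage had a median of 0.206 over 98 heavier-end units, 0.235 over 267 inner units and 0.294 over 59 units at the opposite end. On this relative scale the heavier end, with the largest counts, had the lowest median. A unit's own reads are part of its stem total, which limits the relative spread of a unit with a large share. Another measure had the other order, chi-square over degrees of freedom between palms. Its median was 6.70 for the heavier end against the rest (122 stems) and 2.55 among the rest (97 stems). That measure grows with the number of reads.

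In the 3 stems with the most units the last unit led. Stem p5_sc00015_cds_456 has 53 units, of which each had a read in some palm, and its last unit alone took 61.8%, 71.0%, 53.8%, 44.1% and 41.0% of the reads in mantled replicates 1 to 5 and 51.9%, 57.8%, 51.2%, 59.5% and 64.6% in normal replicates 1 to 5. The extremes were mantled replicates 2 and 5. Unit 52 added 12.4% to 19.8% and unit 1 added 7.14% to 14.6%, so that most of the inner units had few reads. Units with a read numbered 14 in mantled replicate 1 and 44 in mantled replicate 4, which had 212 and 1104 reads on the stem.

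Stem p5_sc00085_cds_37, with 51 units, had 44 to 144 reads per palm, and its last unit held 61.4% to 82.6% of them, with the group means at 71.8 ± 8.12% in mantled and 73.6 ± 8.57% in normal palms (SD, n = 5 each). Stem p5_sc00227_cds_2, with 49 units and 31 to 104 reads, had 56.5 ± 15.6% and 51.8 ± 7.0% on its last unit. In both stems the groups overlapped widely, and 14 and 15 units were never read.

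The stems with the most reads differed in which unit led. Stem p5_sc00339_cds_36, with 27 units, had 986 to 4829 reads per palm, and inner unit 3 held 92.4%, 91.8%, 90.0%, 88.7% and 89.5% of them in mantled replicates 1 to 5 and 89.9%, 91.7%, 90.4%, 91.3% and 86.9% in normal replicates 1 to 5. Its total, in TMM-scaled CPM, ranged from 82.6 CPM in mantled replicate 2 to 410 CPM in mantled replicate 3, while the share of unit 3 stayed within 86.9% to 92.4%. The total thus varied severalfold with nearly the same leading unit in every palm.

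In stem p5_sc00039_cds_148, with 24 units, the last unit held 24.6%, 55.5%, 20.4%, 24.1% and 22.1% of reads in mantled replicates 1 to 5 and 37.3%, 38.1%, 28.8%, 29.4% and 41.6% in normal replicates 1 to 5. Mantled replicate 2 stood above all other palms, and the remaining mantled palms were below every normal palm. This unit was among the 7 called without mantled replicate 2, at -0.62 on the log2 scale (SE 0.11, edgeR adjusted p = 0.0226). Its first unit ranged from 6.93% in normal replicate 5 and 7.41% in mantled replicate 2 to 16.1% in mantled replicate 3.

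Stem p5_sc00063_cds_253, with 22 units, was led by inner unit 16, with 46.5 ± 5.66% in mantled and 45.7 ± 1.92% in normal palms (SD, n = 5 each). The last unit held 18.2%, 40.7%, 13.6%, 16.7% and 16.2% in mantled replicates 1 to 5 and 30.4%, 23.9%, 16.0%, 25.2% and 24.4% in normal replicates 1 to 5. In mantled replicate 2 this unit exceeded unit 16, at 36.9%, which was the reverse of every other palm.

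**Figure D5:**
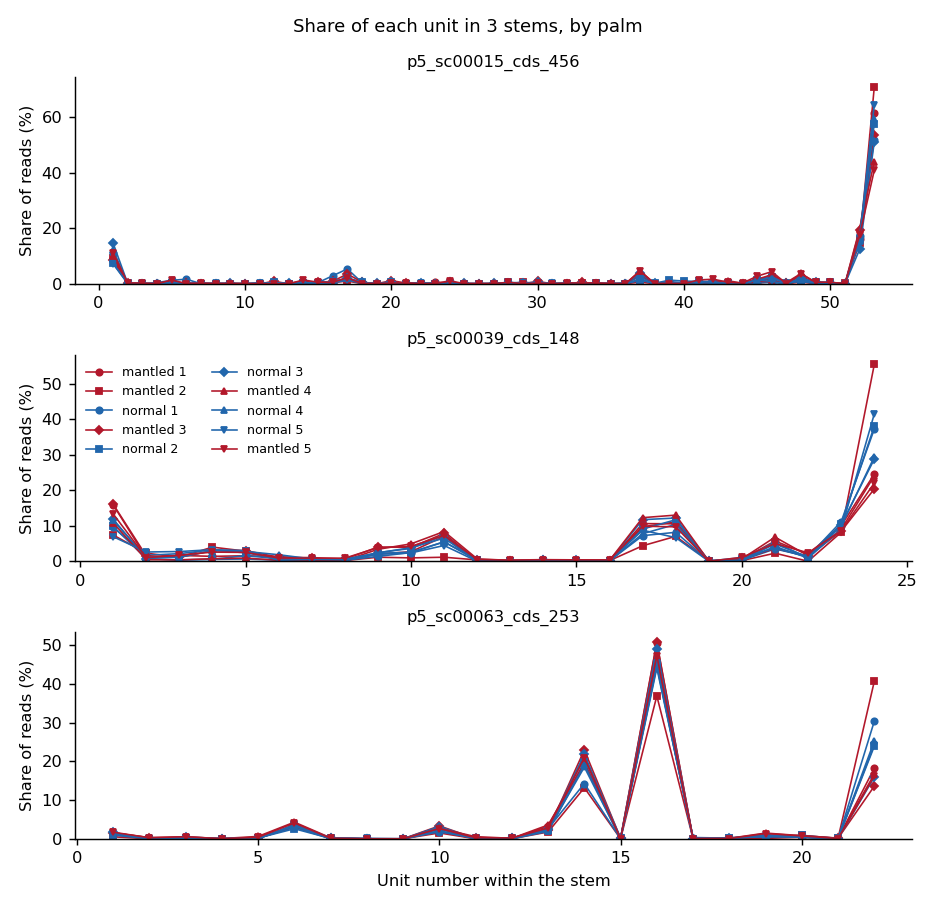
Share of the stem's reads (percent, vertical axis) on each unit by its number (horizontal axis) in 3 stems, with 1 line per palm (red mantled, blue normal). The last unit is highest in mantled replicate 2 in each stem, at 71.0%, 55.5% and 40.7%. Not all inner peaks are shared by the palms. In p5_sc00039_cds_148, unit 11 held 1.14% in mantled replicate 2 and 4.44% to 8.39% in the other palms. Unit 4 of that stem ran from 0.54% in normal replicate 2 to 3.99% in mantled replicate 2.

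The smallest stem p-values for usage belonged to p5_sc00123_cds_163 and p5_sc00017_cds_71, at 0.0628 and 0.0674 after Simes' correction of the edgeR tests, and the adjusted p was 1. In p5_sc00123_cds_163, with 26 units and 34 to 143 reads per palm, the first unit held 55.7%, 52.9%, 48.5%, 40.1% and 55.9% in mantled replicates 1 to 5 and 33.9%, 42.4%, 41.4%, 41.5% and 38.4% in normal replicates 1 to 5. Mantled replicate 4 alone overlapped the normal range. In p5_sc00017_cds_71, with 276 to 1242 reads, the last and the first unit shared most reads, and the last held 87.0% in mantled replicate 2 and 41.6% to 72.5% in the other palms.

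Only 3 stems had at least 10 tested units, with 10, 16 and 15 of their 24 units tested, in the order named next. Their median usage coefficients were 0.353 in p5_sc00077_cds_252, 0.283 in p5_sc00039_cds_148 and 0.209 in p5_sc00105_cds_111, below those of their totals at 0.601, 0.534 and 0.468. In p5_sc00077_cds_252, with 24 units, the last unit held 46.5% in mantled replicate 2, 31.5% in normal replicate 5 and 24.3% in normal replicate 1, and 12.1% to 16.4% in the other palms.

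Stem p5_sc00105_cds_111, with 24 units, had the most even spread of the 3. Inner unit 14, which had the most reads summed over palms, held 16.7 ± 2.19% in mantled and 16.4 ± 1.63% in normal palms (SD, n = 5 each), and inner unit 16 held 17.0 ± 1.89% and 16.7 ± 4.07%, slightly more as a mean over palms. The effective number of units was 13.1, and both end units together held 6.34% of the reads. Mantled replicate 2 did not stand apart there, with 14.4% on unit 14, where the other palms had 15.04% to 20.03%. The total of the stem nevertheless ran from 16.5 CPM in normal replicate 5 to 97.6 CPM in mantled replicate 3.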

How the data were processed

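Leaf RNA of 10 palms was measured, 1 library each. Raw counts per unit were deposited by the authors, without normalization. HTSeq 0.6.1p1 for counting and TopHat2 2.0.13 for alignment are named in the submitters' processing notes, with Trim Galore 0.4.0 and FastQC 0.11.3. Not given in the sources used here: counting mode, strand setting, genome build. Unassigned classes were left out.

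Usage was tested with edgeR 4.0.16 (R 4.3.3), glmQLFit robust and glmQLFTest, two-sided, with the palm's stem total as offset, over all cds units that passed filterByExpr in stems with at least 2 such units and at least 10 reads in every palm. Stem totals were scaled by TMM. Benjamini-Hochberg adjustment ran over all features tested. CPM of named stems is TMM-scaled. Alternatives used limma 3.58.1 and DESeq2 1.42.0. The test was checked on simulated data. Counts carry no molecular identifiers.

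The stems, lists and rules were chosen with earlier results of these data known. Named by rule were the 2 units with the smallest p each way, and stems with the most units (3), most reads (3), smallest Simes p (2) and extreme usage dispersion among stems with at least 10 tested units. The heavier-end measure and covariate were chosen after seeing the data. The labels give no replicate numbers; replicates are numbered in accession order.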

Additional observations from a re-analysis of the deposited data

Results flagged for a closer look

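In 98 sets of values, each a measure or a named share or level over the 5 palms of 1 group, 8 had a palm far from the other 4, where chance flags about 1 in 20; the sets are not independent. Mantled replicate 2 was that palm in 4 of them. The last unit held 55.51% of p5_sc00039_cds_148 there (others 20.4% to 24.6%), 40.7% of p5_sc00063_cds_253 (13.6% to 18.2%) and 46.49% of p5_sc00077_cds_252 (13.2% to 16.4%), and the level of p5_sc00123_cds_163 was 2.847 CPM (9.04 to 11.4 CPM). Normal replicate 3 was set apart in 3 sets, by a share of 9.91% on the opposite end of the 150 stems (others 7.74% to 8.34%), 5.765% on unit 25 of p5_sc00339_cds_36 (3.57% to 4.06%) and 49.02% on unit 16 of p5_sc00063_cds_253 (44.2% to 45.4%). In normal replicate 5, unit 2 of p5_sc00339_cds_36 held 4.529% (1.1% to 2.09%).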

How the results depend on the processing

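The count of 0 units with changed usage held in 20 of 22 alternatives and the count of 0 stems likewise. With 1 palm left out the counts ran from 0 to 7 units and from 0 to 3 stems, the highest without mantled replicate 2; without mantled replicate 2 and normal replicate 5 together they were 3 of 461 units (0.651%, where 0.871% of all units passed) and 1 of 103 stems (0.971%, where 1.62% did). The cause was not tested. From 6 of 424, units at unadjusted p under 0.05 became 2 to 116 with 1 palm left out (2 without mantled replicate 5, 3 and 14 without normal replicates 2 and 3, and 116 without mantled replicate 2). These are 0.468%, 0.632%, 3.02% and 24.3% of the units of the 150 stems, where 1.76%, 2.28%, 5.95% and 25.7% of all units tested reached that level. They were 78 (16.9%, all units 22.3%) without mantled replicate 2 and normal replicate 5, 11 (2.59%, all units 3.89%) with the covariate, 27 (5.65%, all units 8.42%) with the covariate and without mantled replicate 2, and 123 of 2965 (4.15%, all units 4.28%) without the filter on units. Other tools gave 25 (5.9%, all units 7.01%) with the quasi-binomial model, 1 (0.236%, all units 0.622%) with limma-voom and 0 (all units 0.258%) with diffSpliceDGE. All 4 named units had the same direction, and none passed the adjusted threshold, in the 22 alternatives; the adjusted p ran down to 0.0527 in p5_sc00017_cds_71.12, without mantled replicate 2. Changed stem totals stayed at 0 in 13 alternatives. The mean heavier-end share was 42.3% to 44.7% in 12 alternatives, against 43.6%. The alternatives with the covariate, those without that pair of palms and the stems with at least 1000 reads were chosen after seeing the data. No paired analysis was possible because no replicate numbers are shared by the labels. With 28705 to 50926 reads per palm on the 150 stems, 3590 of their 4014 units were not tested. Not all of these had few reads, since 27 stems with enough reads had fewer than 2 units past the filter. In 1 of them, p5_sc00009_cds_197, the first unit held 89.3% of 5895 reads.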
